A study of Mus musculus with 3 samples.

Results

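The Notch receptors (Notch1, Notch2, Notch3 and Notch4), their ligands (Jag1, Jag2, Dll1, Dll3 and Dll4) and the target gene Hes1 were described in the UMI-RNAseq data of NIH3T3, a mouse fibroblast line long kept in culture. These 10 genes were taken by gene name from the 55573 genes listed, and each name matched exactly 1 row. The dataset holds 3 libraries of untreated cells grown in medium with fetal bovine serum, named library 1, library 2 and library 3 after their numbers in the titles. As all were made under 1 condition, samples could not be compared by group. Separate cultures are not stated, and the SD given here may thus hold technical variation alone. A random tag on each molecule in UMI-RNAseq lets PCR copies be removed before counting. The values are FPKM, the fragments of a gene per kilobase of its length and per 1000000 fragments counted. In such bulk libraries, fewer cells expressing a gene and less RNA per cell cannot be told apart.

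Notch receptors are single-pass membrane proteins that are read out by cutting. A ligand of the Jagged or Delta-like family on a neighboring cell pulls on the receptor, an ADAM protease and then gamma-secretase cut it, and the freed intracellular domain enters the nucleus and joins Rbpj and a Mastermind protein at target genes. Hes1, a basic helix-loop-helix repressor, is a classical target that also responds to other inputs. Among the ligands, Dll3 is known to act mainly inside the cell and does not activate receptors on a neighbor, and in the vasculature Notch4 and Dll4 are best known from endothelial cells.

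The results showed that Notch2 was the most abundant receptor message and Jag1 the most abundant ligand message in NIH3T3 cells. Notch1, Notch4, Hes1 and Jag2 were also measured at a mean FPKM of at least 1, whereas Dll4, Dll3 and Notch3 rested on a few fragments and Dll1 on none. Thus 6 of the 10 genes reached a mean FPKM of 1, against 23.2% of all genes listed and 49.2% of the protein-coding genes. Of the receptors 3 of 4 reached it, and of the ligands 2 of 5. All of these levels depend on the gene length in the FPKM, and the order of Notch1, Notch4, Hes1 and Jag1 changed when another length was used, as described further on.

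The libraries held 13959723 to 14423209 counted fragments, which were recovered from the deposited values. The fragments behind an FPKM came out whole, within 0.01, for 99.2% of the genes with a fragment with isoform lengths averaged per gene from GENCODE M21 on GRCm38. All genes of the set but Dll1, which had no fragment, could be checked in this way and came out whole. The labels name NIH3T3 as the cell line but speak of retina in their extraction text. Of 12 retina markers, 0 reached a mean FPKM of 1, and their summed FPKM lay between 0.562 and 1.31 per library. The photoreceptor transcription factor Nrl and the eye transcription factor Pax6 were listed at 0. Of 12 fibroblast markers, 10 reached it, with a summed FPKM between 9362 and 9478. Postn stayed at 0.494 FPKM and Lum at 0 fragments, so these fibroblast markers were absent or nearly so.

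**Figure D1:**
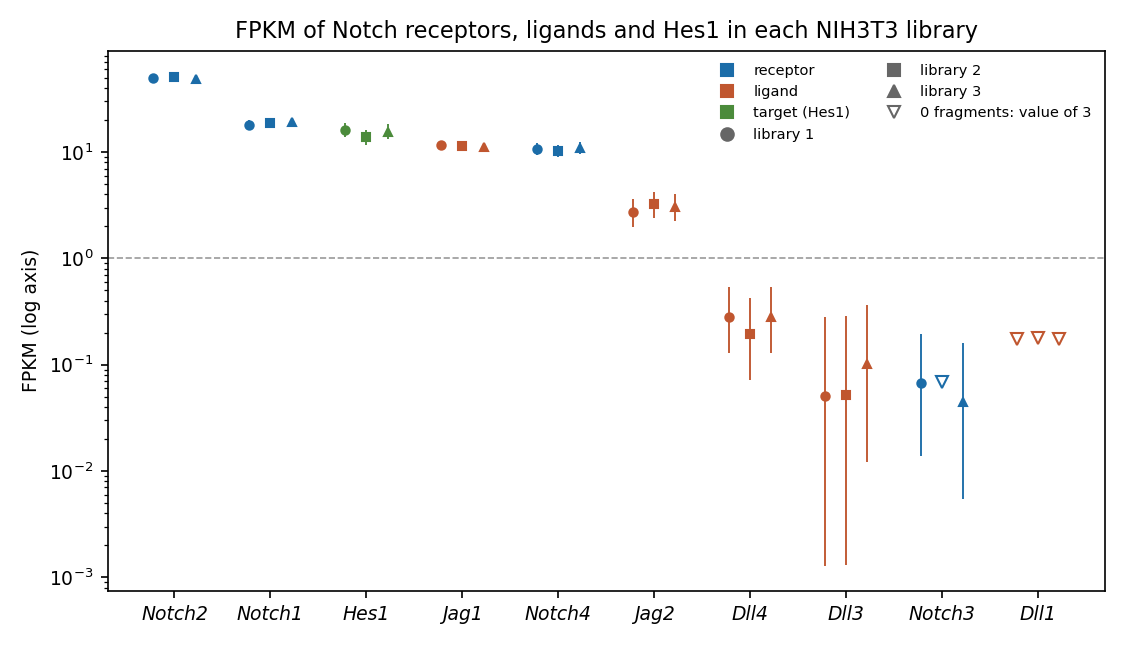
FPKM of each gene (y axis, log scale) in libraries 1, 2 and 3 (circle, square, triangle), with exact 95% Clopper-Pearson intervals for counting error. Open triangles stand for 0 fragments and are drawn at the FPKM of 3 fragments, and the dashed line marks an FPKM of 1. Notch2 lies highest in every library, and the intervals of Dll3 and Notch3 overlap each other in every library.

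Notch2 (ENSMUSG00000027878, chromosome 3, 98013527 to 98150361 of GRCm38, plus strand) had 49.6 FPKM in library 1, 51.3 in library 2 and 48.4 in library 3. Library 2 was the highest and library 3 the lowest, and no value of another gene of the set came near them. The mean of 49.7 ± 1.45 FPKM (SD, n = 3) lay above 78.3% of the 12905 genes at or above 1 FPKM and rested on 13155 fragments in all.

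Notch1 (ENSMUSG00000026923, chromosome 2, 26457903 to 26516663, minus strand), the receptor best known from T cell development and leukemia, had 18.0, 18.9 and 19.2 FPKM in libraries 1, 2 and 3. Its mean was 18.7 ± 0.598 FPKM (SD, n = 3), from 1212 fragments. Per library, Notch2 exceeded it 2.75-fold, 2.72-fold and 2.52-fold, or 2.66-fold ± 0.124 on average (SD, n = 3). This ratio was 9.82 ± 0.456 when fragments were divided by the longest isoform and 14.3 ± 0.666 with merged exons.

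Notch4 (ENSMUSG00000015468, chromosome 17, 34564268 to 34588503, plus strand) had 10.8, 10.3 and 11.0 FPKM, with a mean of 10.7 ± 0.357 (SD, n = 3) and 705 fragments. RNA of this gene was therefore clearly detected in a fibroblast line, since each library held at least 222 of its fragments. Of its 12 annotated isoforms, 1 is annotated as protein coding, and which isoforms the fragments came from was not tested. Markers of endothelial cells were low beside Notch4 in the deposited FPKM. Of 10 such markers, 2 reached a mean FPKM of 1, namely Flt1 with 2.77 ± 0.105 and Cdh5 with 1.35 ± 0.290 (SD, n = 3), and the summed FPKM of the list lay between 4.24 and 4.74 per library. Emcn, Erg and Cldn5 were listed at 0, and Pecam1 had 0.0662 FPKM. In the deposited FPKM, Notch4 alone thus exceeded the sum of the 10 endothelial markers in every library. The size of this excess depends on the gene length. The length used for Notch4 was 1547 nt, against 6591 nt for its longest isoform. For Flt1 these lengths were 2989 and 6895 nt, and for Cdh5 2171 and 3995 nt. Whether Notch4 exceeds the marker sum in every library with another length was not tested.

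Notch3 (ENSMUSG00000038146, chromosome 17, 32120820 to 32166852, minus strand), a receptor known from vascular smooth muscle and pericytes, was counted 3, 0 and 2 times in libraries 1, 2 and 3. These counts correspond to 0.0665, 0 and 0.0447 FPKM. For the 0 fragments of library 2, a limit of 3 fragments corresponds to 0.0687 FPKM, and the exact 95% interval reaches 0.0845. The libraries thus did not differ detectably at this depth. Over all libraries, Notch2 lay 1327-fold above Notch3, with an exact 95% interval from 568.5 to 4087 that covers counting error only. The ratio was 2009 with the longest isoform and 1974 with merged exons, lengths tried for it after the values were seen.

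Of the summed receptor FPKM, Notch2 took 62.8% ± 1.15, Notch1 23.6% ± 0.727, Notch4 13.5% ± 0.624 and Notch3 0.0473% ± 0.0432 (SD, n = 3). Notch2 therefore made up most of the receptor messages in each library, from 61.6% to 63.8%.

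The start regions of the receptors with the highest level and of Notch4 are shown because they differ in base composition. Each is the 250 bases before the RefSeq start on GRCm38.p6, at chr3:98013288-98013537 for Notch2 and chr17:34564045-34564294 for Notch4, both on the plus strand, with each CpG in capitals.
Notch2: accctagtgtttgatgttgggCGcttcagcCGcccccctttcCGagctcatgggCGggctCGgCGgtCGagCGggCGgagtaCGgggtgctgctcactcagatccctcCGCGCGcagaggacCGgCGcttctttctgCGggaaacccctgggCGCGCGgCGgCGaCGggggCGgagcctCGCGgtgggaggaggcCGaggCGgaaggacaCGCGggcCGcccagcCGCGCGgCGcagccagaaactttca
Notch4: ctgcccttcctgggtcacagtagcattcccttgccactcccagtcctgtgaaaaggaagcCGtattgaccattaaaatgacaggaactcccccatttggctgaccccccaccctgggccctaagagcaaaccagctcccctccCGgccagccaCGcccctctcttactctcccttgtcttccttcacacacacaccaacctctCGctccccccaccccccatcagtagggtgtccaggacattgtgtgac
The window of Notch2 held 34 CpG and 72% G or C, and that of Notch4 held 4 CpG and 58.4% G or C, against a median of 6 CpG and 52.4% over the 32851 windows of the table. The window of Notch3 held 17 CpG, and the windows of the other genes of the set lay between 10 and 54. The core GTGGGAA of the Rbpj site, searched on both strands, was in 0 of the 10 windows of the 9 genes matched and in 5.42% of all windows. A match or its absence is a description of these letters only. Hes1 was not matched.

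Jag1 (ENSMUSG00000027276, chromosome 2, 137081456 to 137116644, minus strand) had 11.6, 11.4 and 11.1 FPKM in libraries 1, 2 and 3. Its mean was 11.3 ± 0.259 FPKM (SD, n = 3), from 1714 fragments. Jag2 (ENSMUSG00000002799, chromosome 12, 112907819 to 112929776, minus strand) had 2.70, 3.24 and 3.03 FPKM, with a mean of 2.99 ± 0.270 (SD, n = 3) and 144 fragments. Library 1 was its lowest, and its exact 95% interval, 1.96 to 3.63 FPKM, overlapped those of libraries 2 and 3.

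The Delta-like ligands were scarcely detected. Dll4 (ENSMUSG00000027314, chromosome 2, 119325784 to 119335962, plus strand) had 9, 6 and 9 fragments, or 0.281, 0.194 and 0.283 FPKM. Dll3 (ENSMUSG00000003436, chromosome 7, 28293553 to 28302238, minus strand) had 1, 1 and 2 fragments, or 0.0503, 0.0519 and 0.101 FPKM. For both genes the intervals of the 3 libraries overlapped. Dll1 (ENSMUSG00000014773, chromosome 17, 15367354 to 15376872, minus strand), a major ligand of the embryonic segmentation clock, had 0 fragments in every library, which allows up to 0.174, 0.180 and 0.175 FPKM. Jag1 was at least 63.2-fold higher than Dll1, and Jag2 at least 15.5-fold higher, with Dll1 set to 3 fragments per library. For Jag2 this minimum was 10.3-fold with the longest isoform and 8.88-fold with merged exons, and for Jag1 it was 119.3-fold and 135.4-fold.

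Jag1 took 77.4% ± 1.61 and Jag2 20.4% ± 1.73 of the summed ligand FPKM, whereas Dll4 took 1.73% ± 0.366 and Dll3 0.464% ± 0.203 (SD, n = 3). The Jagged ligands thus held nearly all of the ligand messages. The summed receptors reached 79.1 ± 1.10 FPKM and the summed ligands 14.7 ± 0.171 FPKM, so receptor messages exceeded ligand messages by a factor of 5.40 ± 0.0346 (SD, n = 3).

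Hes1 (ENSMUSG00000022528, chromosome 16, 30064384 to 30067796, plus strand) had 16.2 FPKM in library 1, 13.8 in library 2 and 15.6 in library 3. Library 2 was the lowest, with 138 fragments against 168 and 160. The mean of 15.2 ± 1.27 FPKM (SD, n = 3) lay above 46.2% of the genes at or above 1 FPKM.

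In the deposited FPKM the order of the levels was Notch2, Notch1, Hes1, Jag1, Notch4, Jag2, Dll4, Dll3, Notch3 and Dll1. The means of these same values set the order, so comparing neighbors is a description and no separate support for it. How often neighbors among other genes do not overlap is not given here. For 7 of the 9 neighboring pairs, the 3 values of the higher gene lay above the 3 values of the lower one. The closest of these pairs was Jag1 above Notch4, by a factor of 1.08, 1.10 and 1.01 in libraries 1, 2 and 3 and a log2 difference of 0.09 ± 0.07 (SD, n = 3), and the 95% counting intervals of both genes overlapped in every library. These intervals thus did not separate the pair at this depth. The counting intervals of Dll4 and Dll3 also overlapped in every library, with 24 and 4 fragments in all. Dll4 lay above Dll3 by a factor of 5.59, 3.73 and 2.80 in libraries 1, 2 and 3. Overlap of separate intervals is not a test of a difference, and no interval of the pooled ratio is given for this pair. Notch1 lay above Hes1 by 1.24 ± 0.129 and Hes1 above Jag1 by 1.34 ± 0.110 (SD, n = 3). The counting intervals of Notch1 and Hes1 overlapped in libraries 1 and 3, and those of Hes1 and Jag1 in library 2. Dll3, Notch3 and Dll1 could not be ordered, since their values overlapped or stayed under the limit that 0 fragments allow. On log2(FPKM + 0.1), sign flips over libraries (exact permutation test, two-sided) gave p = 0.25 for each of the 7 pairs (0.321 after Benjamini-Hochberg adjustment over 9 pairs) and 0.5 for the others. The smallest p that 3 libraries allow is 0.25, so the test could not pass 0.05.

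The gene length weighed on these levels more than the libraries did. Notch1 has 11 annotated isoforms from 157 to 9488 nt, of which 2 are annotated as protein coding, and their mean of 1519 nt was the length in its FPKM. Its longest isoform exceeded that length 6.25-fold, more than for 99.9% of 12803 genes at or above 1 FPKM with whole fragments, where the median was 1.72. The factor was also large for Jag2, at 4.52, and Notch4, at 4.26, both above that of 99% of these genes. It was 1.69 for Notch2, 1.59 for Jag1 and 2.04 for Hes1.

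When the fragments were divided by the longest isoform instead, Notch2 remained the highest with 29.4 ± 0.858 per kilobase and per 1000000 fragments (SD, n = 3). Hes1 had 7.43 ± 0.622 and Jag1 7.15 ± 0.164, and both now lay above Notch1 with 2.99 ± 0.0957 and Notch4 with 2.50 ± 0.0838. Notch1 thus moved from above Hes1 to 0.405-fold ± 0.0424 of it (SD, n = 3), and from 1.65-fold ± 0.0892 to 0.419-fold ± 0.0227 of Jag1. Jag2 dropped under 1, to 0.661 ± 0.0596. With all exons of a gene merged, a length added after the values were seen, Notch1 had 1.995 ± 0.0638, Notch4 2.05 ± 0.0685, Hes1 5.35 ± 0.448 and Jag1 6.89 ± 0.157. The position of Notch2 at the top was common to the 3 lengths, and its share of the summed receptors rose to 84.2% ± 0.681 with the longest isoform and 87.6% ± 0.571 with merged exons. The summed receptors stayed above the summed ligands, by 4.36 ± 0.0860 and 4.32 ± 0.0951 (SD, n = 3). Which isoforms the fragments came from was not tested, since the values are per gene.

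**Figure D2:**
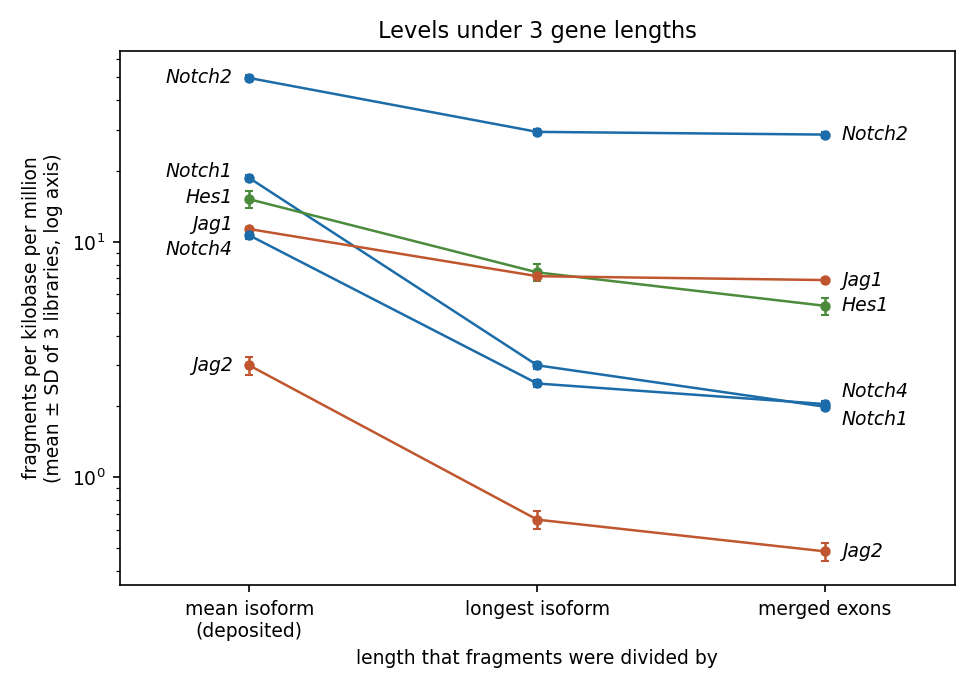
Fragments per kilobase and per 1000000 fragments (y axis, log scale, mean ± SD of 3 libraries) for the 6 genes at or above 1 FPKM, with fragments divided by the mean isoform length as deposited, the longest isoform or the merged exons. Notch1 falls from 18.7 to 2.99 and 1.995 and crosses Hes1 and Jag1, while Notch2 stays highest.

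The spread between libraries was set against counting error. The coefficient of variation of Notch2 was 2.92%, against 1.51% from counting error alone. For Hes1 it was 8.38% against 8.02%. For Notch1, Jag1, Notch4 and Jag2 it was smaller than that of counting error, with 3.20% against 4.98% for Notch1. Thus for 2 of the 6 genes above 1 FPKM the value was larger than that of counting error, against 42.5% of the 12803 genes. A coefficient of variation from 3 libraries is itself uncertain, and no test of an excess is given here. Among 4459 genes with a mean within 2-fold of that of Hes1, the SD of log2(FPKM + 1) of Hes1, 0.12, was larger than in 86.1%. Library 2 decides this value, and without it the SD of Hes1 was 0.834 times the median of like genes. For Jag1 the SD was 0.03, larger than in 14.9% of its like genes and 0.464 times their median, which became 0.815 times without library 2. Like genes were matched on FPKM and not on fragments, so gene length and counting error enter both comparisons. The length used was 718 nt for Hes1 and 3538 nt for Jag1.

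**Figure D3:**
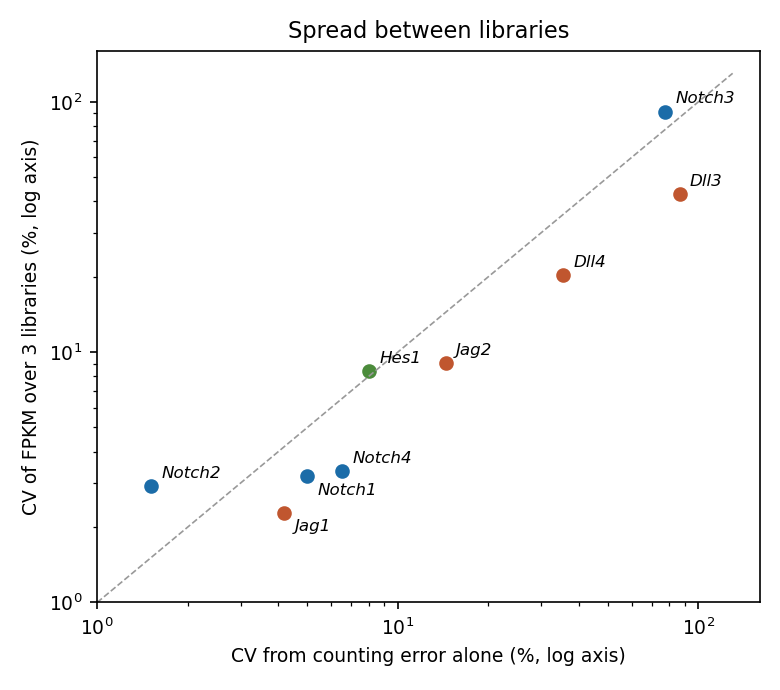
Coefficient of variation of FPKM over the 3 libraries (y axis) against that of counting error alone (x axis), both in percent on log scales, for the 9 genes with a fragment. The dashed line marks equal values, and Notch2, Hes1 and Notch3 lie above it.

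Genes that overlap the set in the annotation had few fragments. There were 10 such genes over 7 of the set, and use of strand in counting is not given in the sources used here. The transcript 0610009E02Rik overlaps the end of Notch1 on the opposite strand and had 4, 11 and 4 fragments, and Gm42820 inside Notch2 had 6, 10 and 5. Gm13568 near the end of Notch1 had 0, 1 and 0 fragments, Gm42819 inside Notch2 1, 5 and 4, Gm14207 beside Dll4 5, 1 and 3, and Mir6941 inside Jag2 1, 0 and 0. Gm17276, which lies across Notch3, A930024N18Rik across Dll1, and Mir6996 and Gm20462 inside Notch1 and Notch4 were listed at 0. Of the distinct 75-nt words of the transcripts, 8.77% in Notch1, 3.06% in Notch2, 4.23% in Notch3, 3.70% in Dll4 and 13.7% in Dll1 were found in other genes' transcripts too, in each case only in overlapping genes. In Notch4, Jag1, Jag2, Dll3 and Hes1 the percentage was 0, so the receptors shared no such word among themselves.

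Next, the other genes of the pathway were described from lists by role. Of the 68 genes found, 49 reached a mean FPKM of 1, against 23.2% of all genes and 49.2% of protein-coding genes. A mean of 10 was reached by 37 of them, against 14.8% of all genes and 35.6% of protein-coding genes. Their median of 11.6 FPKM compares with 17.5 over the 12905 genes that reached 1 and 0 over all genes listed. The machinery that cuts and reads the receptor was measured throughout. All 7 gamma-secretase genes reached 1, led by the small subunit gene Psenen with 65.6 ± 2.10, Aph1a with 60.0 ± 8.01 and the nicastrin gene Ncstn with 48.3 ± 2.29 FPKM (SD, n = 3), and Aph1c was lowest with 1.39 ± 0.123. Psen2, a catalytic subunit gene, had 12.6, 10.8 and 13.1 FPKM in libraries 1, 2 and 3. Adam10, which makes the ligand-induced cut, had 80.0 ± 1.10, Furin, the convertase that trims the receptor on its way to the surface, 71.9 ± 2.18, and Adam17 48.3 ± 1.68 FPKM (SD, n = 3).

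Rbpj, the DNA-binding partner of the intracellular domain, was the highest of all the genes in these lists, with 213.5, 225.5 and 183.0 FPKM in libraries 1, 2 and 3 and a mean of 207.4 ± 21.9 (SD, n = 3). Library 3 was its lowest. The acetyltransferase genes Ep300 and Crebbp had 69.6 ± 1.54 and 41.9 ± 1.12 FPKM. The Mastermind genes ranged from Maml1 with 18.2 to Maml3 with 3.14 FPKM, and all 8 genes of the nuclear complex reached 1. So did all 10 co-repressor genes, from Ncor1 with 109.3 ± 2.80 and Hdac1 with 70.4 ± 0.293 down to Tle4 with 4.18 ± 0.138 FPKM (SD, n = 3). The pancreatic Rbpj relative Rbpjl had 0.0897 FPKM.

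Genes that modify receptor or ligand were more uneven. Of 5 glycosyltransferase genes, 4 reached 1. Poglut1 and Pofut1, which place O-glucose and O-fucose on the receptor, had 36.3 ± 1.56 and 18.2 ± 1.34 FPKM (SD, n = 3). Among the Fringe genes, which extend the fucose and change the response to Delta-like and Jagged ligands, Rfng had 8.01 ± 0.598, Lfng 2.75 ± 0.342 and Mfng 0.0517 ± 0.0895 FPKM (SD, n = 3). The ubiquitin ligases that let ligands be internalized were led by Mib1 with 41.9 ± 0.306 and Mib2 with 34.4 ± 0.323, followed by Neurl1a with 1.26 ± 0.0820 FPKM (SD, n = 3). Of these 6 genes, 3 reached 1, and Neurl1b was listed at 0. Of 9 receptor regulators, 7 reached 1, with Dtx3 at 91.3 ± 0.878, Itch at 29.9 ± 1.31 and Numb, an inhibitor of Notch, at 27.6 ± 1.02 FPKM (SD, n = 3). Nrarp, a feedback inhibitor that is itself a Notch target, was listed at 0 in every library.

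Among the other Hes and Hey genes and their Bhlhe relatives, 3 of 11 reached a mean FPKM of 1. These were Bhlhe40 with 54.1 ± 1.66, Hes6 with 10.8 ± 0.987 and Bhlhe41 with 1.91 ± 0.0632 FPKM (SD, n = 3). Hes1 lay above every other Hes gene of the list in the deposited FPKM, but with merged exons Hes6 had 6.33 and Hes1 5.35 per kilobase and per 1000000 fragments. The usual Notch targets Hey2 and Heyl had 0 fragments, as did Hes2 and Helt, while Hey1 had 0.0748 and Hes5 0.0287 FPKM. Of 8 non-canonical ligand genes found, 4 reached 1. Dlk1, a Delta-like protein without the receptor-activating domain, had 60.8 ± 1.71 FPKM (SD, n = 3), above each of the canonical ligands, and it stayed above them with merged exons, at 21.6 against 6.89 for Jag1. Mfap5 had 20.4 ± 0.533 and Ccn3 2.30 ± 0.213 FPKM (SD, n = 3), and Cntn1 was listed at 0.

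**Figure D4:**
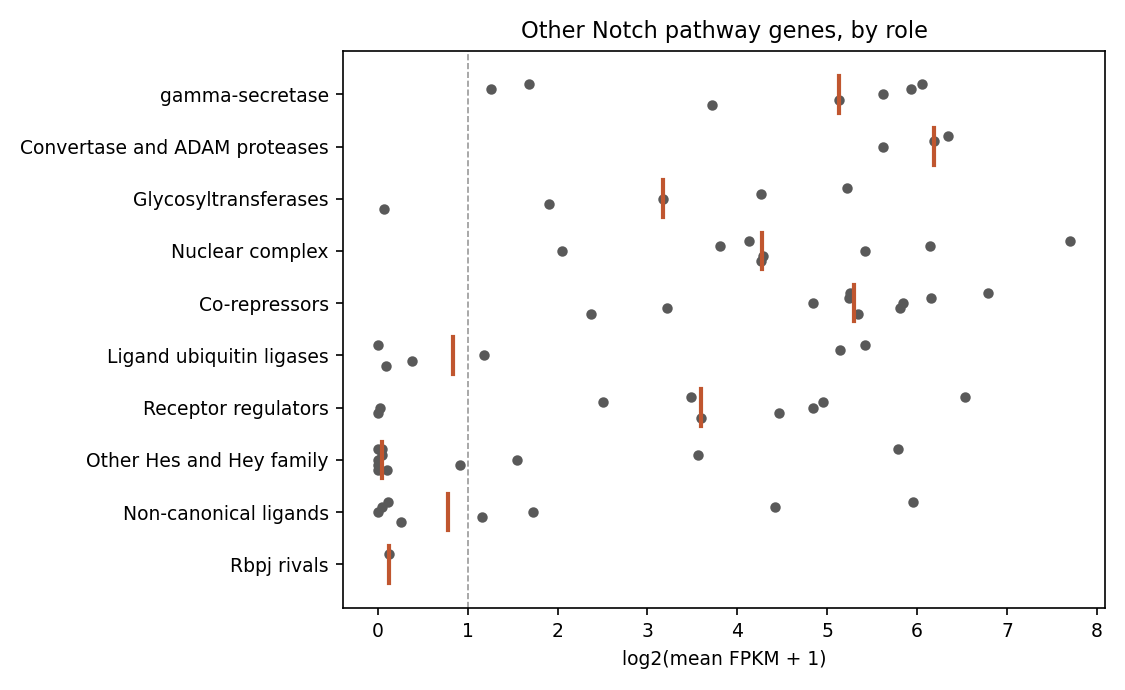
Log2(mean FPKM + 1) over 3 libraries (x axis) of the other Notch pathway genes, 1 point per gene, by list (y axis); points are offset vertically for legibility only. Orange bars are list medians, and the dashed line marks a mean FPKM of 1. The nuclear complex, co-repressors, proteases and gamma-secretase lie wholly to the right of the line, while most other Hes and Hey genes lie at its left.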

How the data were processed

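UMI-RNAseq was measured in 3 libraries of NIH3T3 cells. Per the methods and the submitters' processing notes, UMI-tools 1.0.0 extracted the UMIs, HISAT2 2.0.4 aligned the reads, duplicates sharing a UMI were discarded, and HTSeq 0.6.1 gave counts per gene. The authors deposited FPKM, 1 column per library, without pooling. The genome build and annotation are not given in the sources used here. Both deposited tables hold equal values for 55573 genes, and 0 columns of values were left unused.

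Library totals were recovered from genes with 1 isoform, where the commonest FPKM times length is 1 fragment, and each gene's fragments from its mean isoform length in GENCODE M21 (55480 IDs matched). The recovery was tested on simulated data. Intervals are exact Clopper-Pearson 95% intervals, and 0 fragments were given a limit of 3. Both cover counting error only. PCR copies had been removed by UMI. Neighbors in the order of mean FPKM were compared within libraries by an exact sign-flip permutation test with a pseudocount of 0.1. Promoter windows came from RefSeq on GRCm38.p6, and 9 of the 10 genes matched. Python 3.11.15, numpy 2.4.6, pandas 2.3.3, scipy 1.17.1 and matplotlib 3.10.9 were used.

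The genes and lists were chosen with earlier results of these data known. Named are the 10 genes, the 3 highest and the lowest gene of each list and genes overlapping the set. Further genes of the lists and markers were named after their values were seen, and some genes of the lists are not reported here. No gene is named for a like pattern, since replicates of 1 condition hold none. Alternatives were leaving out each replicate, TPM, median-of-ratios scaling, the median, other pseudocounts and limits, the longest isoform and no division by length. Merged exons, and the counts and minimum folds under the longest isoform, were chosen after seeing the data. AmpFISH images were not analysed here.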

Additional observations from a re-analysis of the deposited data

How the results depend on the processing

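The alternatives yielded 241 values, of which 192 were called unchanged. A ratio had to keep its sign, and an SD its side of the median of like genes. A level or share could move by no more than the SD between libraries, and a count by no more than 1.5 times. Division by another length changed the most. The log2 ratio of Notch1 to Hes1, 0.30, became -1.28 with the longest isoform and -1.38 with merged exons. That of Hes1 to Jag1, 0.41, became -0.36 with merged exons and -1.87 with fragments not divided by length, and that of Dll3 to Notch3, 0.31, became -0.028 without division. The share of Notch2 in the receptors became 84.2%, 87.2% and 87.6% with the longest isoform, no division and merged exons, that of Notch1 8.59%, 8.04% and 6.11%, and that of Notch4 7.19%, 4.68% and 6.28%. The share of Jag1 in the ligands became 89.4%, 90.9% and 91.2%, and that of Jag2 8.27%, 7.65% and 6.42%. TPM moved 8 of the 10 levels, that of Notch2 to 72.1, since it rescales all genes. Leaving out a replicate reversed no log2 ratio and moved no level or share by more than the SD. It did move the SD against like genes across 1: to 0.753 for Notch2, 1.36 for Notch1 and 0.834 for Hes1 without replicate 2, 1.15 for Notch4 without replicate 1 and 1.41 for Jag2 without replicate 3.

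The 6 genes of the set at a mean FPKM of 1 became 7 at a limit of 0.1 and 5 with the longest isoform or merged exons, where Jag2 fell under 1. The shares of all genes under these alternatives are not given here, so these counts have no background beside them. Leaving out a replicate, other scalings and limits of 0.5 or 2 left 6. The test could not pass 0.05 with 3 libraries under any of these. No paired analysis of conditions was possible because all libraries belong to 1 condition, and only genes were compared within libraries. Depth limits Dll4, Dll3, Notch3 and Dll1, which held 24, 4, 5 and 0 fragments in all.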

Other observations

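Of the 68 other pathway genes, 45 instead of 49 reached 1 when fragments were divided by the merged exons, a length added after the data were examined. The share of all genes that reach 1 at that length is not given here, so the count of 45 has no background beside it. The genes that fell under 1 were Aph1c with 0.788, Bhlhe41 with 0.718, Dner with 0.451 and Neurl1a with 0.557. Rbpj had 46.7 per kilobase and per 1000000 fragments at that length, against a deposited mean of 207.4 FPKM. By the mean of the libraries, Rbpj still lay above the other genes of the pathway lists, of which Dtx3 was the next with 42.5. This order did not hold in every library. In library 3, Rbpj had 7524 fragments over 12750 nt and Dtx3 1581 over 2572 nt, which places Dtx3 higher there.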
